A study of Mus musculus with 4 samples.

Results

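The levels of 10 genes of epithelial adhesion and of the keratin skeleton were described in mouse embryonic fibroblasts that lacked or carried Med1. They are Cdh1, Epcam, Krt8, Krt18, Krt19, Dsg2, Dsc2, Dsp, Pkp2 and Jup, 10 of the 12393 named genes on the array, and all of their 23 probe sets among 22626 were used. The genes were chosen by name with their differences between these same arrays already known, so their levels and differences are given as a description, with no test. Total RNA was labelled and the product was hybridised to Affymetrix arrays. These measure each transcript by the brightness of short probe groups called probe sets. The 2 Med1-/- p53-/- arrays were set against 2 Med1+/+ p53-/- arrays. Both genotypes lacked p53 on both alleles, were of strain C57BL/6J, and were derived from E10.0 embryos of 1 cross between a Med1+/- p53-/- male and a Med1+/- p53+/- female. The cells were grown in DMEM with fetal calf serum. Whether a genotype's 2 arrays stand for different embryos or cultures is not in the labels, so p-values measure a spread that may be technical. Loss of Med1 and any other way in which the founder embryos or cultures differed cannot be told apart.

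Epithelial cells hold together through 2 kinds of cadherin junction. In adherens junctions E-cadherin, the product of Cdh1, binds its like on the next cell and is tied to actin through catenins. In desmosomes the cadherins Dsg2 and Dsc2 bind across the gap, plakoglobin (Jup) and plakophilin (Pkp2) form the plaque beneath them, and desmoplakin (Dsp) ties the plaque to keratin filaments. Keratin filaments are built from pairs of a type II keratin such as Krt8 and a type I keratin such as Krt18 or Krt19, the pairs of simple epithelia. Fibroblasts are mesenchymal cells, known for N-cadherin and vimentin rather than for these proteins.

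The signals of E-cadherin, Krt8, Krt18, Dsg2 and Dsp were far lower in Med1-/- cells, those of Krt19 and Jup were higher, Pkp2 differed little, and Dsc2 and Epcam were dim in both genotypes. On the brightest probe set of each gene, 6 of the 10 genes were at least 2-fold lower in Med1-/- cells and 2 were at least 2-fold higher. Over all 14639 features before any filter, 17.0% were at least 2-fold lower and 19.4% at least 2-fold higher. Both Med1-/- arrays lay below both Med1+/+ arrays for 7 of the genes and above them for 3, against 33.0% and 38.1% of all features. The median log2 difference was -1.93 over the 10 genes and 0.11 over all features. Because these differences led to the choice of the genes, nothing is read from those counts.

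**Figure D1:**
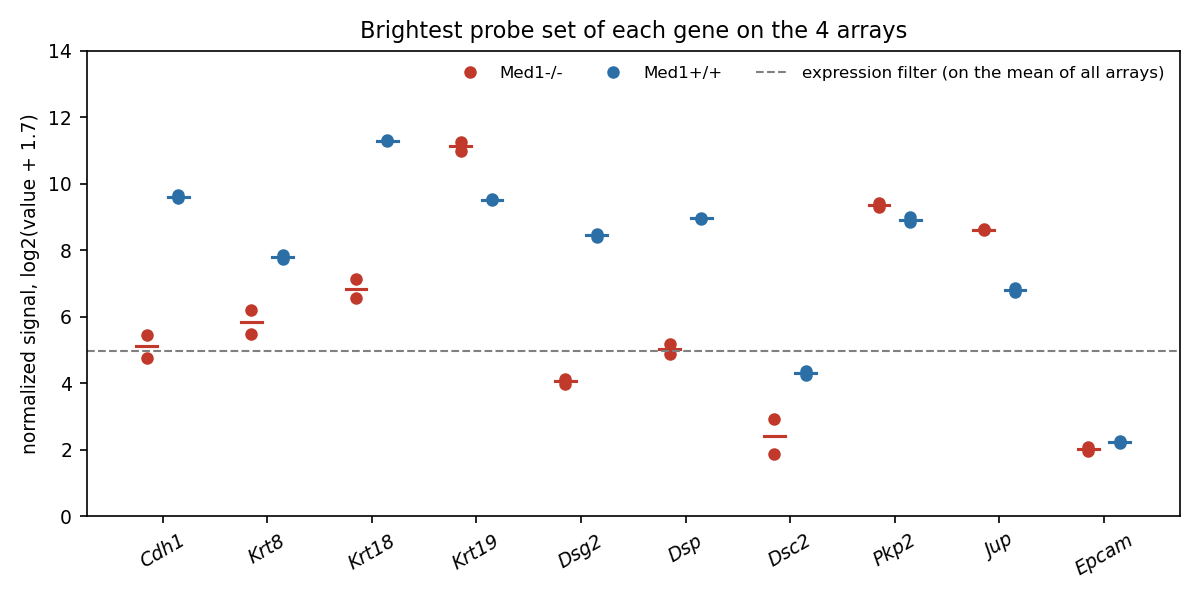
Normalized signal on a log2 scale of the brightest probe set of each gene; each point is 1 array, the short bars are genotype means (n = 2 each), and the dashed line is the expression filter at 4.98. Cdh1, Krt18, Dsg2 and Dsp stand about 4 log2 units apart with Med1-/- below, whereas Krt19 and Jup have Med1-/- above.

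The arrays as a whole limited what could be read. The deposited signal had medians of 36.1 and 51.4 on the Med1-/- arrays, against 76.2 and 106.7 on the Med1+/+ arrays, so values were quantile normalized, and every signal below is a normalized one unless called deposited. The Med1 probe set 1448708_at, which checks the labels, had signals of 47.1 and 53.0 in Med1-/- cells, against 631 and 591 in Med1+/+ cells. Xist, transcribed from an inactive X chromosome, was at 364 and 201 in Med1-/- cells, against 6771 and 5839 in Med1+/+ cells, and the part of embryo sex in any difference below was not tested. The genotypes differed across much of the array, with 39.1% of the 8923 features past the filter called higher in Med1-/- cells and 36.2% called lower (limma, Benjamini-Hochberg adjusted p under 0.05). The filter kept features whose mean log2 signal over all 4 arrays reached the 40th percentile. Of the 10 genes 8 passed it, but a gene bright in 1 genotype alone can pass it too.

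The promoters of Krt8, Krt18 and Dsp, which were lower in Med1-/- cells, and of Jup, which was higher, are printed as a description. Jup alone stands for the higher genes, so the windows do not allow a comparison of higher with lower genes. Each printed promoter runs 5′ to 3′ on the gene's own strand from 250 bases before to 50 after the annotated start, from RefSeq on GRCm38.p6. They lie at chr15:102004293-102004592 on the minus strand (Krt8), chr15:102027966-102028265 on the plus strand (Krt18), chr13:38151044-38151343 on the plus strand (Dsp) and chr11:100397741-100398040 on the minus strand (Jup). Capitals mark matches on either strand to 4 motifs. The first is the E-box CAGGTG, the sequence bound by the Snail and Zeb repressors of E-cadherin. Others are GGGCGG, known as the GC box, and the box named for its letters CCAAT. The last is TATAAA, the TATA box.
Krt8: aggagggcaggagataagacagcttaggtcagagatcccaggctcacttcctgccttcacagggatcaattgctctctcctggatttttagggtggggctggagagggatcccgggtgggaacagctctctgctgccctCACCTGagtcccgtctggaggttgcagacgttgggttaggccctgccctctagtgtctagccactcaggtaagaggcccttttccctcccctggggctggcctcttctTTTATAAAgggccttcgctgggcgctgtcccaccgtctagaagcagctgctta
Krt18: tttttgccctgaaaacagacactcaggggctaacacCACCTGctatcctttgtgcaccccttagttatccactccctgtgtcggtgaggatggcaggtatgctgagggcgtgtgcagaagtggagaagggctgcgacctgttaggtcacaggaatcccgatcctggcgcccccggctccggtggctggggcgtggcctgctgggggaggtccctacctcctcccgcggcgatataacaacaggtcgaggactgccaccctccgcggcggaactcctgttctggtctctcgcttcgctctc
Dsp: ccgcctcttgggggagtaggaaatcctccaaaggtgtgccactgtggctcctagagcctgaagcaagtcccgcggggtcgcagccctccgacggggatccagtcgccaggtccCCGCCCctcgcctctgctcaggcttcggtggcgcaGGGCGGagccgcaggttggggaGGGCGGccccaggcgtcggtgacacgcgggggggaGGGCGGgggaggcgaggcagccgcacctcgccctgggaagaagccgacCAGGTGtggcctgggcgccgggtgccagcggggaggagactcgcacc
Jup: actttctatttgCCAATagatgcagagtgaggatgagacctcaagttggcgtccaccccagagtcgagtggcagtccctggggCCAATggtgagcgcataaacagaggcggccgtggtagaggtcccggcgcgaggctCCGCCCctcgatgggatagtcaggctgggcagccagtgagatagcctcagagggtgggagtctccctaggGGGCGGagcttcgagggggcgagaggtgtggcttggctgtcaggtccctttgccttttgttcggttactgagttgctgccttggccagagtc

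The E-box occurred once in each of the Krt8, Krt18 and Dsp windows, at -111, -214 and +4 from the annotated start, and not in that of Jup. Among all 32851 promoter windows 20.2% held it. The Epcam window held 2, at -187 and -19, although Epcam was dim in both genotypes. The Dsp window held 4 GC boxes, that of Jup 2 and that of Epcam 1, a motif in 35.7% of all windows. The share of G and C was 73% for Dsp, 61.3% for Krt18, 60.7% for Jup, 58% for Krt8 and 57% for Epcam, with a median of 52.7% over all windows. CCAAT boxes, in 37.4% of windows, were found in Jup alone of the 5, and the overlapping pair of TATA matches in Krt8 alone, a motif in 13.6%. No window held the Grainyhead-like sequence AACCGGTT (0.146% of all) or the AP-1-like TGANTCA (7.81%). These are matches of letters in a fixed window, and binding of any protein to them was not tested. Promoter windows were matched for 5 of the 10 genes.

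Krt18, the type I partner of Krt8 in simple epithelia, was low in Med1-/- cells and bright in Med1+/+ cells. Probe set 1448169_at had signals of 138 and 93.6 in Med1-/- cells, against 2493 and 2542 in Med1+/+ cells. The 2 genotypes were far apart, and on each array this placed it above 60.6% and 54.6% of all probe sets in Med1-/- cells and above 95.9% and 96.0% in Med1+/+ cells. The mean log2 signal was 6.85 ± 0.39 in Med1-/- and 11.3 ± 0.020 in Med1+/+ cells (SD, n = 2 each), which is 21.8-fold lower in Med1-/- cells.

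Krt8, the type II keratin of the same filament, was measured by 3 probe sets, and they differed in the size of the change but not in its direction. The brightest, 1420647_a_at, had signals of 42.7 and 72.1 in Med1-/- cells, against 211 and 232 in Med1+/+ cells, a log2 difference of -1.96. On 1423691_x_at the signals were 4.1 and 3.8 in Med1-/- cells, against 145 and 160 in Med1+/+ cells, a difference of -4.76. The dimmest on average in Med1+/+ cells, 1435989_x_at, was at 1.0 and 18.2 in Med1-/- cells, against 121 and 169 in Med1+/+ cells, a difference of -4.31. The Med1-/- arrays were thus the lower on all 3, by 3.89-fold on the first and by 27.2-fold and 19.8-fold on the other two. On 1435989_x_at a Med1-/- signal lay under the pseudocount of 1.7 that was added before taking logs. Probe sets with _x_at or _s_at names can also match transcripts of other genes, and the keratins are a family of similar sequences.

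Krt19, the small type I keratin that also pairs with Krt8, went the other way. Its signal on 1417156_at was 2041 and 2460 in Med1-/- cells, against 741 and 725 in Med1+/+ cells. Both Med1-/- arrays were above both Med1+/+ arrays, by 1.61 on the log2 scale, or 3.05-fold. The deposited signal, before any normalization, was also higher on the dimmer arrays, at 1302 and 2362 in Med1-/- cells, against 784 and 1078 in Med1+/+ cells. The type I keratins thus split, with Krt18 far lower and Krt19 higher in the same Med1-/- cells.

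Cdh1 encodes E-cadherin, the adherens junction cadherin that defines epithelial contacts. Its 1 probe set, 1448261_at, had signals of 42.0 and 25.7 in Med1-/- cells, against 753 and 812 in Med1+/+ cells. The Med1-/- arrays placed it above 43.8% and 37.6% of probe sets and the Med1+/+ arrays above 86.4% and 87.3%, although the cells were labelled as fibroblasts. The mean log2 signal was 5.11 ± 0.48 in Med1-/- cells and 9.61 ± 0.077 in Med1+/+ cells (SD, n = 2 each), 22.6-fold lower in Med1-/- cells. Epcam, an adhesion protein of many epithelia, was at 2.2 and 2.6 in Med1-/- cells, against 2.9 and 3.1 in Med1+/+ cells. These signals lay above at most 13.8% of probe sets, too dim for the difference of -0.21 to be read.

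Dsg2, the desmosomal cadherin of simple epithelia and heart, was low in Med1-/- cells on every probe set that was bright in either genotype. On 1439476_at the signal was 15.8 and 14.2 in Med1-/- cells, against 335 and 362 in Med1+/+ cells, a log2 difference of -4.39. Probe set 1449740_s_at, at 21.8 and 12.8 in Med1-/- cells, against 200.2 and 201.8 in Med1+/+ cells, differed by -3.46, and the other 4, all below the filter, by -3.43 to -0.25. The genotypes did not overlap on 5 of the 6. Its partner cadherin Dsc2 was dim throughout, with signals of 2.0 and 6.0 in Med1-/- cells, against 17.4 and 19.1 in Med1+/+ cells on 1426911_at. The difference there was -1.90, but on its other probe set, 1421156_a_at, 1 of the Med1-/- arrays lay above both Med1+/+ arrays and the other below them.

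Dsp encodes desmoplakin, the link between the desmosomal plaque and keratin. Probe set 1435493_at had signals of 28.1 and 34.9 in Med1-/- cells, against 494 and 504 in Med1+/+ cells, and 1435494_s_at had 28.8 and 36.4 in Med1-/- cells, against 353.4 and 353.7 in Med1+/+ cells. The log2 differences were -3.92 and -3.38, and both Med1-/- arrays were the lower on each. The remaining probe set, 1427610_at, was at most 8.2 on any array, and the genotypes overlapped on it.

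The plaque proteins that bind the cadherin tails did not share that pattern. Jup encodes plakoglobin, which sits in desmosomes and adherens junctions alike and is a close relative of beta-catenin. Its 1 probe set, 1426873_s_at, had signals of 400.4 and 386 in Med1-/- cells, against 116 and 106 in Med1+/+ cells, 3.51-fold higher in Med1-/- cells. Pkp2, the plakophilin of simple epithelia and heart, had signals of 635 and 684 in Med1-/- cells, against 458 and 511 in Med1+/+ cells on 1449799_s_at. The difference was 0.44 on that probe set and 0.90 on 1429183_at, at 542 and 476 in Med1-/- cells, against 268 and 275 in Med1+/+ cells. Its other 2 probe sets were below the filter and differed by -0.98, with both Med1-/- arrays the lower, and by -0.26, with the genotypes overlapping.

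**Figure D2:**
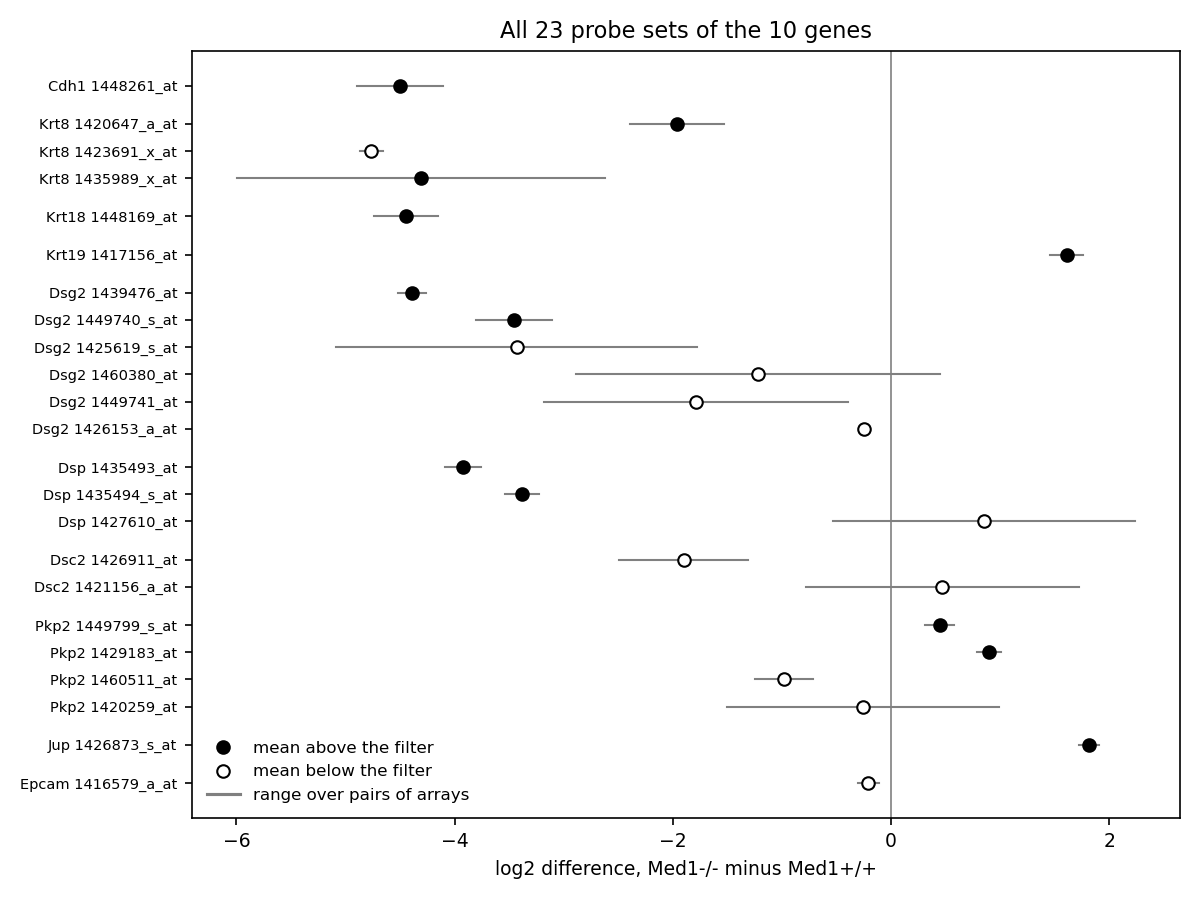
Log2 difference of each of the 23 probe sets, Med1-/- minus Med1+/+; filled points have a mean above the expression filter, and grey lines span the 4 differences between single arrays. Every filled point of Cdh1, Krt8, Krt18, Dsg2 and Dsp lies below -1.9, and those of Krt19, Pkp2 and Jup lie above 0.

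Over all 23 probe sets, both Med1-/- arrays were lower on 15, higher on 4 and overlapped with the Med1+/+ arrays on 4. The 4 that overlapped were below the filter.

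The scaling of the arrays set the zero point of these differences but not the direction of the 5 bright genes that were lower in Med1-/- cells. The median log2 difference of the features tested was 0.09 with quantiles matched, 0.30 with medians matched and 0.11 with 75th percentiles matched. It was -0.76 as deposited, -0.77 when scaled to hybridisation controls and -1.64 when scaled to Bacillus subtilis controls. Higher calls made up 51.9%, 59.9%, 52.9%, 6.45%, 18.1% and 1.58% of all calls, in that order. Both sets of controls were picked by probe set name, and whether their transcripts were added to these samples was not checked. Across the 6 scalings Cdh1 ranged from -6.25 to -4.38, Krt18 from -6.19 to -4.26, Dsg2 from -6.00 to -4.19, Dsp from -5.67 to -3.79 and Krt8 from -3.81 to -1.91. Krt19 stayed above 0, from 0.043 to 1.99, and so did Jup, from 0.021 to 1.96, although both were within 0.05 of 0 on the Bacillus subtilis controls. Pkp2 turned from 0.44 to -0.38, -0.40 and -1.27 in the last 3 scalings. Relative to that median the 8 genes above the filter moved by less than 0.2, with Krt19 at 1.52 to 1.696, Jup at 1.66 to 1.72, Pkp2 at 0.35 to 0.38 and Cdh1 at -4.67 to -4.59. Apart from quantile matching, each scaling divides an array by at most 1 factor, so such relative values of bright genes can hardly move. The 2 dim genes moved more, Dsc2 from -1.99 to -1.55 and Epcam, which changed sign, from -0.30 to 0.48.

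**Figure D3:**
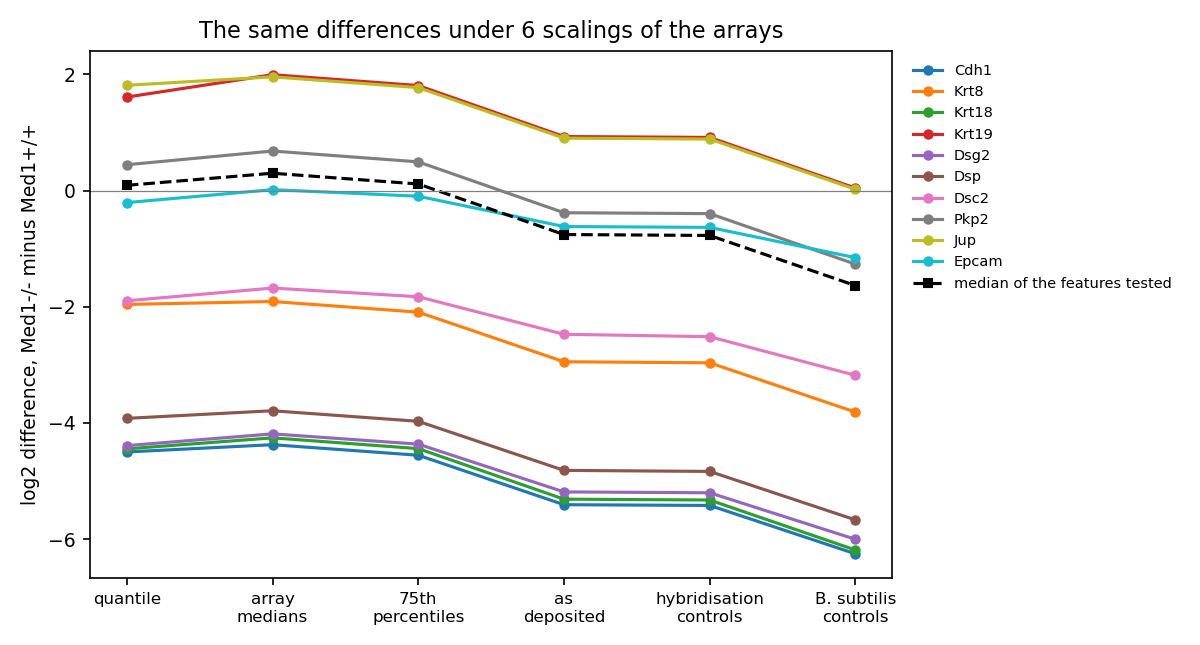
Log2 difference, Med1-/- minus Med1+/+, of the brightest probe set of each gene under 6 scalings of the arrays, with the median of the features tested as a dashed line. The lines of the 8 genes above the filter run nearly parallel to that median, and those of the dim Dsc2 and Epcam are flatter; Pkp2 crosses 0 under the last 3 scalings, Epcam lies at 0.016 with array medians set equal, and Krt19 and Jup come to 0.043 and 0.021 on the Bacillus subtilis controls.

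Other genes of the same structures were counted in 8 lists that hold none of the 10 genes. Of 134 genes listed, 122 were on the array and 64 passed the filter. Among these 64, limma called 25 higher and 23 lower in Med1-/- cells by the same threshold, or 39.1% and 35.9%. Those are near the shares among all features tested, 39.1% and 36.2%, against which the counts of each list below stand. The directions below are after quantile normalization. Relative to the median of the features tested, each of the 26 passing genes named by rule from these lists kept its direction under all 6 scalings.

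Genes of the adherens junction list were mostly lower, 6 of 8 tested, with 1 higher. Ctnnb1, which encodes beta-catenin, fell by 1.12 on the log2 scale (SE 0.12, adjusted p = 0.0002, limma), with signals of 3495 and 2886 in Med1-/- cells, against 7286 and 6562 in Med1+/+ cells. Nectin3, an immunoglobulin-like adhesion molecule, fell by 1.15 and the alpha-catenin-like gene Ctnnal1 fell by 1.32, whereas Nectin2 rose 4.26-fold, to 891 and 794 in Med1-/- cells against 195 and 198 in Med1+/+ cells. The list had a median of -0.74, against 0.09 for all features tested.

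Other desmosome and keratin genes were mostly too dim to test. Of the 13 desmosome and plaque genes 8 were on the array and 3 were tested. Perp, a tetraspan protein of desmosomes, fell by 3.62 (SE 0.45, adjusted p = 0.000376, limma), with signals of 7.8 and 24.1 in Med1-/- cells, against 187 and 195 in Med1+/+ cells, while the other 2 did not pass and the list's median was -0.32. Of 15 other keratins 4 were tested, with a median of 0.24. Relative to the features tested that median was 0.15 with quantiles matched, and the remaining 5 scalings gave -0.034 to 0.028. Only Krt10, a keratin of differentiating epidermis, passed, at -0.68 (adjusted p = 0.0278, limma). Its call was lost with no filter (adjusted p = 0.0631, limma) and without Med1+/+ replicate 2, where Krt10 was at -0.39. Krt7, the other type II keratin of simple epithelia, was at 0.34 (adjusted p = 0.3) and did not pass.

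Tight junction and polarity genes were more often higher, 9 of 16 tested, with 3 lower and a median of 0.72. Among all features tested 39.1% were higher and 36.2% lower. The 3 lower genes were Tjp1 (-1.04), Prkci (-0.78) and Mpp5 (-0.49). The atypical protein kinase gene Prkcz (2.03), the polarity gene Llgl2 (1.93) and the claudin gene Cldn15 (1.72) had the largest changes that passed with Pard6b, another polarity gene, which was 2.82-fold higher (adjusted p from 6.56e-05 to 0.000711, limma). Epithelial regulators and surface proteins were split, 4 higher and 5 lower of 11 tested, with a median of -0.42. The tetraspanin gene Cd9 fell by 2.59, with signals of 290 and 302 in Med1-/- cells, against 1772 and 1803 in Med1+/+ cells, the tricellular junction gene Lsr fell by 2.16 and the surface glycoprotein gene Cd24a fell by 2.15, and the ectodermal transcription factor gene Tfap2a rose by 1.90 (adjusted p from 3.15e-05 to 0.000484, limma).

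Other cadherins and intermediate filaments did not form a simple counterpart to E-cadherin and keratin. Cdh2, the N-cadherin of mesenchymal cells, was at 2011 and 2184 in Med1-/- cells, against 2630 and 2965 in Med1+/+ cells. That fall of 0.41 (adjusted p = 0.0102, limma) became a difference of 0.07 with array medians set equal. With 75th percentiles set equal Cdh2 was at -0.12 (adjusted p = 0.382, limma). The median over its probe sets gave -0.074 (adjusted p = 0.519, limma). Its call was also lost without Med1-/- replicate 1 (adjusted p = 0.0538) or Med1+/+ replicate 2 (adjusted p = 0.0709). The osteoblast cadherin gene Cdh11 fell by 2.13, Cdh13, whose protein lacks a cytoplasmic tail, fell by 1.07, and Cdh3, the P-cadherin of basal epithelia, rose 3.92-fold. The call of Cdh13 was lost with no filter (adjusted p = 0.0640, limma) and without either Med1+/+ array, where Cdh13 was at -1.05 and -1.03. Of 6 cadherins tested 1 was higher and 3 lower, with a median of -0.38. Among the other intermediate filaments 5 of 6 rose and 0 fell, with a median of 1.71, where 39.1% and 36.2% of all features tested did. The 5 were the muscle filament gene Des (3.78), the progenitor filament gene Nes (2.08) and the nuclear lamin genes Lmna (1.75), Lmnb1 (1.67) and Lmnb2 (1.29). The count and median thus rest in large part on lamins. With the median over a gene's probe sets, Des was at 2.28 and Lmna at 1.15. Vim, the vimentin gene, had signals of 13951 and 13474 in Med1-/- cells, against 13232 and 13025 in Med1+/+ cells and did not pass (0.063, adjusted p = 0.497, limma).

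**Figure D4:**
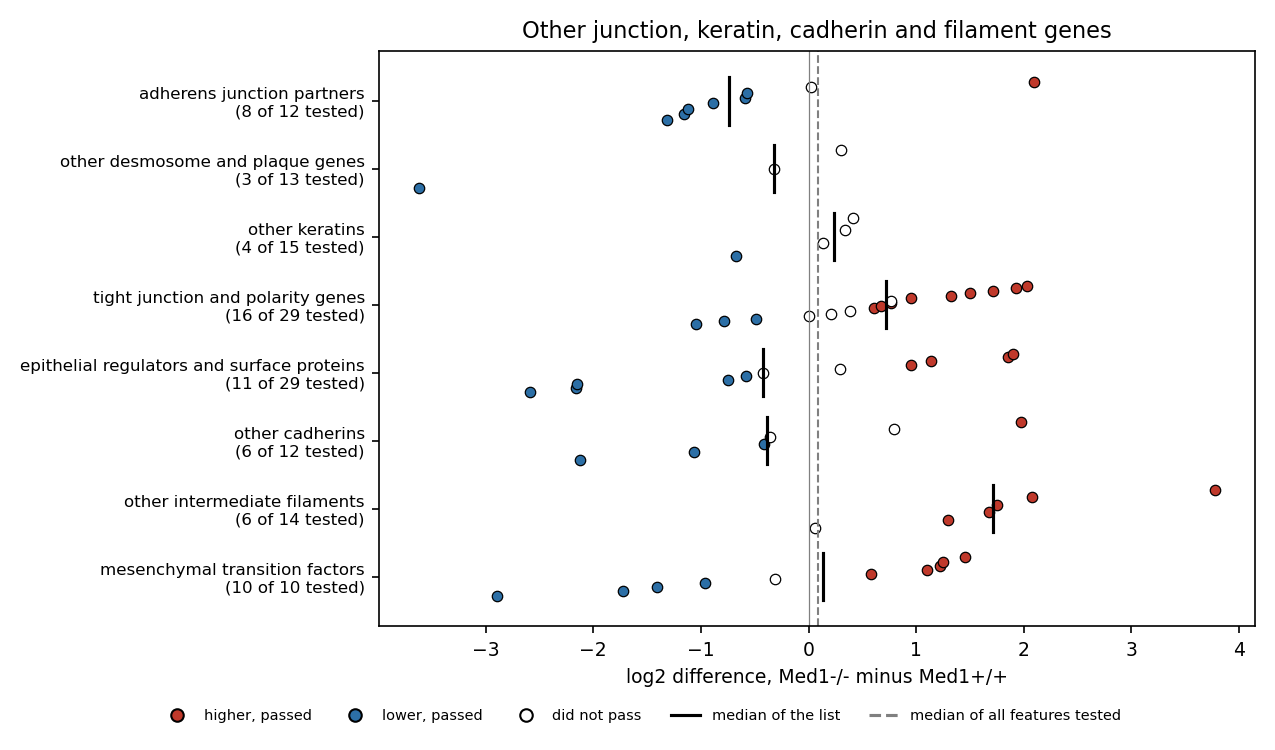
Log2 difference, Med1-/- minus Med1+/+, of each tested gene in 8 lists of other junction, keratin, cadherin, filament and transition genes after quantile normalization; filled points passed the test, black bars are list medians, and the dashed line is the median of all features tested. The adherens junction list lies mostly below 0, apart from Nectin2, and the other intermediate filaments lie above 0; relative to the dashed line, the medians of the other keratins and of the transition factors change sign under other scalings.

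Transcription factors known from the transition from epithelium to mesenchyme changed in both directions, 5 of 10 higher and 4 lower. Snai1, which encodes the E-cadherin repressor Snail, rose by 1.46, whereas Zeb1, which encodes another such repressor, fell by 1.41, the helix-loop-helix gene Tcf4 fell by 1.72 and the mesenchymal homeobox gene Prrx1 fell by 2.89 (adjusted p from 3.15e-05 to 0.000442, limma). With the median over a gene's probe sets in place of the brightest, Prrx1 was at -1.32 and Zeb1 at -0.69, both still past the threshold. The list had a median of 0.13. Relative to the features tested that median was 0.044 with quantiles matched, and the remaining 5 scalings gave -0.028 to -0.026.

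Markers of cell types were read beside the 10 genes because keratins and E-cadherin can come from a minority of other cells, and fewer such cells and less RNA per cell cannot be told apart in these samples. All 12 fibroblast and mesenchyme markers were on the array and 11 passed the filter, 4 higher and 4 lower, with summed signals of 51819 to 55033 in Med1-/- and 48726 to 52596 in Med1+/+ cells. Col1a2, Vim and Fn1 made up most of these sums and lay above at least 99.1% of probe sets on every array. Matching quantiles gives signals of the same rank the same value, so near-equal sums say little about the other markers. Lum was dim. The largest changes among the 11 were those of Pdgfra, a growth factor receptor gene (-2.95), Prrx1 (-2.89), the calcium-binding protein gene S100a4 (-2.68), the matrix proteoglycan gene Dcn (-1.99) and the collagen gene Col1a1 (1.98). The surface glycoprotein gene Thy1 (1.34) and the collagen gene Col3a1 (1.11) were also higher (adjusted p from 3.15e-05 to 0.000166 for these 7, limma). The median of the list relative to the features tested was -0.0036 with quantiles matched, and the remaining 5 scalings gave 0.51 to 0.53.

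Markers of mesothelium, the flat epithelium of body cavities that carries Krt8, Krt18 and Krt19, changed in both directions. Of 5 on the array all passed the filter, 3 higher and 2 lower, and their summed signal was 5384 to 5440 in Med1-/- and 4359 to 4544 in Med1+/+ cells. Upk3b, a uroplakin of mesothelium, made up most of that sum, at 4108 and 3885 in Med1-/- cells, against 2595 and 2307 in Med1+/+ cells. Msln, which encodes mesothelin, was at 317 on both Med1-/- arrays and at 417 and 489 in Med1+/+ cells, and the transcription factor gene Wt1 at 576 and 636 in Med1-/- cells, against 369.9 and 346 in Med1+/+ cells. Rspo1, which encodes a Wnt-enhancing secreted protein, was at 121.5 and 131.7 in Med1-/- cells, against 27.1 and 28.8 in Med1+/+ cells. The membrane glycoprotein gene Gpm6a was at 317 and 414 in Med1-/- cells, against 1135 and 1187 in Med1+/+ cells. Whether cells with these markers carried the signals of the 10 genes was not tested.

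The other marker lists, not all of them epithelial, had lower summed signals than the 2 lists above. Of 5 surface ectoderm and keratinocyte markers on the array 3 were tested, 1 higher and 1 lower, with sums of 260 to 280 in Med1-/- and 306 to 313 in Med1+/+ cells, and Trp63 was at most 11.5 on any array. All 5 of these genes, Krt5, Krt14, Trp63, Perp and Tfap2a, also stand in the lists of junction, keratin and epithelial genes above. Some genes of the other marker lists were likewise counted above, among them Prrx1, Vim and Nes. Of 9 gut and yolk sac endoderm markers 2 were tested, 0 higher and 1 lower, with sums of 443 to 462 in Med1-/- and 519 to 562 in Med1+/+ cells. The lower one was Foxa2, an endoderm transcription factor gene, at 323 and 343 in Med1-/- cells, against 454 and 477 in Med1+/+ cells. Foxa2 made up most of these sums, whereas Afp was at most 12.2 on any array. Of 7 trophoblast markers on the array 2 were tested and 0 passed, with sums of 149 to 187 in Med1-/- and 123 to 147 in Med1+/+ cells. Of 7 endothelial markers 1 was tested and did not pass, with sums of 92.8 to 99.0 in Med1-/- and 60.0 to 79.2 in Med1+/+ cells. Of 6 macrophage and blood markers 1 was tested and did not pass, with sums of 119 to 128 in Med1-/- and 99.3 to 112 in Med1+/+ cells. Of 6 neural markers 2 were tested and both rose, with sums of 938 to 981 in Med1-/- and 260 to 279 in Med1+/+ cells. Tubb3 was at 591 and 634 in Med1-/- cells, against 173 and 167 in Med1+/+ cells. Nes was at 275 and 267 in Med1-/- cells, against 65.6 and 60.5 in Med1+/+ cells. Sox2 was at most 2.2 on any array. No marker in these lists was at exactly 0 on all arrays. The part of any of these cell types in the differences was not tested.

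On GRCm38.p6, Cdh1 lies at chromosome 8:106603350-106670247, Dsp at 13:38151294-38198577, Pkp2 at 16:16213345-16272712 and Epcam at 17:87635979-87651127. Krt8 (15:101996711-102004342) and Krt18 (15:102028216-102032026), Krt19 (11:100140810-100145926) and Jup (11:100368856-100397839), and Dsc2 (18:20030633-20059554) and Dsg2 (18:20558074-20604526) share chromosomes. The 2 genes of the group that were at least 2-fold higher in Med1-/- cells lie on the same chromosome, Krt19 and Jup, 223 kb apart on chromosome 11, and Krt8 and Krt18, both lower, lie 23.9 kb apart on chromosome 15. Genes around each pair were looked at after these values were seen. Within 300 kb of the pair of Krt8 and Krt18, 10 other protein-coding genes were tested, of which 7 were called higher and 1 lower in Med1-/- cells, where 39.1% and 36.2% of all features tested were, with a median log2 difference of 0.82 and a range from -0.66 to 1.55, so no tested neighbour had a fall like that of the pair. The growth factor binding protein gene Igfbp6 was at 1.55 and the retinoic acid receptor gene Rarg at 0.89. Around Krt19 and Jup 10 were tested, 3 higher and 2 lower, from -1.42 to 1.06, the lowest being Acly, which encodes ATP citrate lyase. Around Dsc2 and Dsg2 1 gene was tested, B4galt6, which encodes a galactosyltransferase, and it was lower, at -0.43 (adjusted p = 0.00985, limma).

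**Figure D5:**
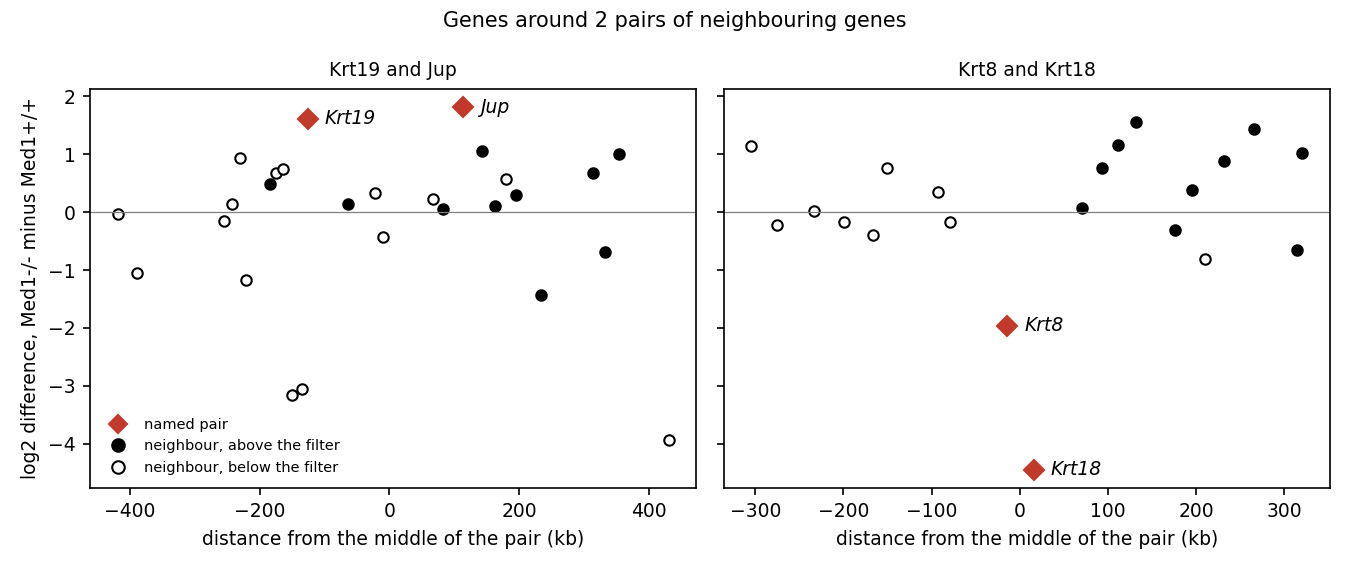
Log2 difference, Med1-/- minus Med1+/+, of genes on the array against their distance in kb from the middle of each pair; diamonds are the pair, filled circles neighbours above the expression filter and open circles those below it. No filled circle reaches the low values of Krt8 and Krt18 or the high values of Krt19 and Jup in its own panel.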

How the data were processed

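Gene expression was measured in 4 samples of mouse embryonic fibroblasts, 2 per genotype. The deposited values are linear probe set intensity values; the authors' probe summary, background correction and scaling are unnamed in the labels. The 3' IVT Express Kit served for RNA labelling, per the labels. Genes and lists were chosen with earlier results of these data known.

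Computed here: 64 control probe sets were left out, symbols of the platform annotation were updated through RefSeq of GRCm38.p6 (20380 of 22626 probe sets had 1 symbol, 691 several, 1555 none), quantiles were matched across arrays, and 1.7, the table's 10th percentile, was added before log2, so that changes of dim genes are understated. Only probe sets whose mean reached the 40th percentile were tested, and the brightest stood for a gene. The genotypes were compared two-sided with limma 3.58.1 (R 4.3.3; eBayes, trend on), and p-values were adjusted over 8923 features by Benjamini-Hochberg, with calls made under 0.05. Residual degrees of freedom were 2 and prior ones 4.71. The procedure was tested on simulated data. Only 4 arrays limit the precision. Named by rule were the 10 genes, in each list up to 4 passing genes with the largest change, the 5 genes nearest to Cdh1 over the arrays, and Med1; other names were chosen after their values were seen. Alternatives varied the scaling, filter, pseudocount, probe set, variance model, replicate block and arrays used. Figures were drawn with matplotlib 3.10.9.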

Additional observations from a re-analysis of the deposited data

How the results depend on the processing

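Scaling was the choice that mattered most. Unscaled, scaled to hybridisation controls and scaled to Bacillus subtilis controls, features called higher numbered 265, 1178 and 126, against 3490 after quantile normalization, and listed junction, keratin and filament genes called higher 5, 14 and 3, against 25. With those 2 sets of controls, features called lower numbered 5343 and 7850, against 3232, and listed genes called lower 36 and 51, against 23. In those 3 scalings 0 of the 10 genes were at least 2-fold higher, against 2 after quantile normalization, and Pkp2 turned to -0.38, -0.40 and -1.27. At least 2-fold lower were 8 of the 10 genes on the Bacillus subtilis controls, against 6 after quantile normalization. That count was 5 with a pseudocount of 32, and 5 with the median over probe sets. With array medians set equal Epcam turned to 0.016 and Cdh2 to 0.070, and on the Bacillus subtilis controls Cldn15 turned to -0.12, Pard6b to -0.28 and Snai1 to -0.42. These scalings differ by construction in where the median of the features tested lies. The replicate numbers pair no samples by the labels (correlation of deviations 0.30 for the same numbers, 2 pairs). With a replicate block 3825 features were higher and 3500 lower, within 1.5 times the counts without it. Under the filters, pseudocounts, probe set rule, variance model, block and arrays left out, none of the 10 genes changed direction where recomputed, and 8 of the recomputed values of the 26 named list genes lost their call. Not among the recomputed values were Prkcz and Cdh13 with the median over probe sets, and Prkcz without either Med1-/- array. The median over probe sets gave Krt8 -3.88, Dsg2 -1.90 and Dsc2 -0.71. A pseudocount of 32 gave Dsg2 -3.02, Dsc2 -0.48, Perp -2.24, Prkcz 1.12 and Lsr -1.28, the last 3 with their calls kept. With no detection calls in the table, absence at dim signals cannot be read.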

Other observations

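The 5 named genes whose values over the 4 arrays lay nearest to those of Cdh1, by Euclidean distance of centred log2 signals, were the tetraspanin gene Tspan8 (distance 0.226), the neutrophil chemokine gene Cxcl5 (0.232), Xist (0.262), the collagenase gene Mmp13 (0.272) and the glycosyltransferase gene B3gnt5 (0.314). Their log2 differences were -4.29, -4.63, -4.53, -4.37 and -4.21. With 4 arrays in 2 groups this measure reads little beyond the size of the difference.

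Below the expression filter, and with no test, several epithelial genes differed widely. They were picked after their values were seen. Mal2, a membrane traffic protein of polarised epithelia, had signals of 6.9 and 3.95 in Med1-/- cells, against 112 and 160 in Med1+/+ cells. Krt13 was at 3.2 and 0.65 in Med1-/- cells, against 24.2 and 34.2 in Med1+/+ cells, and Krt15 at 1.3 and 1.6 in Med1-/- cells, against 32.5 and 18.3 in Med1+/+ cells. Both are type I keratins within 300 kb of Krt19 on chromosome 11, and Krt19 was higher in Med1-/- cells. Krt6a, a keratin of stressed epidermis, was at 57.0 and 51.8 in Med1-/- cells, against 3.2 and 18.5 in Med1+/+ cells.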
